A study of Mus musculus with 9 samples.

Results

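Genomic imprinting leaves 1 parental copy of a gene silent, through DNA methylation marks set in the egg or sperm and kept in the cells of the body. Many imprinted genes act on growth: paternally expressed genes tend to promote it and maternally expressed genes tend to restrain it, and a set of them is coexpressed in growing embryonic and fetal tissues and falls in level as tissues mature. In adipose tissue, the imprinted genes Dlk1 and Ndn are known from preadipocytes, where their products hold back the formation of fat cells. The 10 imprinted growth regulators described here were H19, Meg3, Plagl1, Cdkn1c, Peg3, Mest, Grb10, Ndn, Rian and Mirg, chosen by name among the 54532 genes of the deposited tables, and all 10 names matched a single gene. None of the values below shows which parental copy the RNA came from, since the tables do not separate alleles.

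The RNA came from 3T3-L1, a mouse preadipocyte cell line that accumulates lipid when given adipogenic hormones, in 3 groups of 3 libraries each. Undifferentiated cells had been confluent for 3 days. Differentiated cells had then received a medium holding insulin at 10 μg/mL, rosiglitazone (a PPARg agonist) at 1 μM, 3-isobutyl-1-methylxanthine at 0.5 mM and dexamethasone at 1 μM. Lysfree cells had received the same hormones in medium to which no lysine was added, with serum. Lysfree therefore differs from Undifferentiated by the hormones, the medium and the time in it as well as by lysine, and from Differentiated by lysine. Nothing in the labels tells whether the libraries of a group came from separate cultures, so p-values measure the spread between these libraries, which may be technical, and all cells were of a single line.

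Poly A RNA was sequenced, and the authors deposited the count of reads per gene and the FPKM (fragments scaled by gene length and by the library's total). Total counts were 15880144 to 21806693 per library, and 3 counts, taken as the limit that a count of 0 allows, corresponded to 0.138 to 0.189 CPM (counts scaled by the library's total). Lysfree 1 stood apart from its group: the chi-square per degree of freedom over genes was 41.9 against Lysfree 2 and 43.0 against Lysfree 3, while Lysfree 2 and 3 differed by 2.72. The calls of the growth regulators in Lysfree and the counts of the gene lists there are therefore given with and without that library. Each gene outside the 10 growth regulators that is named below as called in a comparison with Lysfree was also called, in the same direction, without Lysfree 1. All 8 adipocyte markers (Adipoq, Fabp4, Cebpa, Pparg, Plin1, Lpl, Cidec and Cd36) were called higher in Differentiated than in Undifferentiated cells and lower in Lysfree than in Differentiated cells. Their summed level was 314 to 395 FPKM in Undifferentiated, 6890 to 7245 in Differentiated and 292 to 408 in Lysfree libraries. The similar sums hide differences: 1 of the 8 was called higher and 3 lower in Lysfree than in Undifferentiated cells, with or without Lysfree 1. That is 50% against 14.3% of all genes. Mean levels in Undifferentiated and Lysfree cells were 57.8 and 4.18 FPKM for Adipoq and 16.6 and 72.7 for Cd36. The summed level of 8 fibroblast and preadipocyte markers was 3874 to 4209, 1064 to 1065 and 1835 to 1941 FPKM in the same order, and none of these 8 was at 0 in any group. In Lysfree against Undifferentiated cells 1 of these 8 was called higher and 4 lower, 62.5%, with or without Lysfree 1. Mean levels in Undifferentiated and Lysfree cells were 1887 and 327 FPKM for Col1a1, the highest of the list in Undifferentiated cells, and 94.1 and 390 for Ly6a. Adgre1 and Itgam (macrophage), Tie1 (endothelium) and Myod1 (muscle) had no count in any library, and the summed level of the macrophage, endothelial and muscle marker lists reached at most 6.53, 0.272 and 4.27 FPKM in a library. Most of the macrophage sum was Cd14, at 5.54, 4.93 and 5.19 FPKM in Undifferentiated, Differentiated and Lysfree cells. Most of the muscle sum was Des, at 2.60, 3.32 and 1.07. Of these lists, only Tek (endothelium, higher) and Des (lower) were called in Lysfree against both other groups. These marker lists moved with the groups alongside the results below, and their part in those results was not tested. In bulk RNA, fewer cells that express a gene and less of its RNA per cell cannot be told apart.

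The sequences just upstream of RefSeq transcription starts differ in base composition, and those of the genes that the comparisons turn on are shown first. RefSeq promoters of the assembly GRCm38.p6 were found for 8 of the 10 genes, without H19 and Cdkn1c. The 250 bases that end just before the RefSeq transcription start are printed with CpG dinucleotides, the sites of the methylation marks, in capitals. Those of Plagl1, Ndn, Grb10, Mest and Mirg lie inside the gene spans of the deposited tables, given below, not upstream of them. For Ndn every base of that span is exonic. Plagl1 (chr10:13090582-13090831, plus strand) has 19 CpGs, Peg3 (chr7:6730420-6730669, minus strand) 8, Ndn (chr7:62348027-62348276, plus strand) 5 and Rian (chr12:109603695-109603944, plus strand) none.
Plagl1 promoter: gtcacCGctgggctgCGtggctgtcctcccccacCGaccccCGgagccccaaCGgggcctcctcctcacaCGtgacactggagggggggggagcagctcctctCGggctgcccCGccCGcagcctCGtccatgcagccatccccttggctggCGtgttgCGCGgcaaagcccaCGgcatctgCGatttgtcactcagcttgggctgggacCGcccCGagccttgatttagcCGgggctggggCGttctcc
Peg3 promoter: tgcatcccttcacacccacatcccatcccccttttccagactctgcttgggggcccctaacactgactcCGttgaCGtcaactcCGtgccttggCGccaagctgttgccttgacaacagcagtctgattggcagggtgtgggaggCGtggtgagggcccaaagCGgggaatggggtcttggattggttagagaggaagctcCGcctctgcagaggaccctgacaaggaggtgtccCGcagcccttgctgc
Ndn promoter: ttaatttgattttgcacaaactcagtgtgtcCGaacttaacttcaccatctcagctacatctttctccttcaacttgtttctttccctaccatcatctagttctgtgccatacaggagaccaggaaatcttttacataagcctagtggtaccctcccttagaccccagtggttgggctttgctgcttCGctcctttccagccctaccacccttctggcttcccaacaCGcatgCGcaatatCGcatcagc
Rian promoter: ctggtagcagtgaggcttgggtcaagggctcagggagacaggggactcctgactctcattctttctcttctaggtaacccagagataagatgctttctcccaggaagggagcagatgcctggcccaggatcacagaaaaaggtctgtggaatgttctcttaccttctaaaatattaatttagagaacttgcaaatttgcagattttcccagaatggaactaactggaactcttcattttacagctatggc

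The median over all 32851 promoters of that length was 6 CpGs with an observed to expected CpG ratio of 0.374. Plagl1 had a ratio of 0.618, above 67.3% of promoters, and the first Grb10 promoter had 40 CpGs and a ratio of 0.983, above 93.4% of them. Peg3 was close to the median at 0.351, Ndn was at 0.411, and Rian was at 0. The 3 motifs searched on both strands were GGGGCCCC, an element bound by Plagl1, AAGATGGC, bound by YY1, and the core motif of CTCF. The Plagl1 element was found once, in the Peg3 promoter, and in 0.889% of all promoters, the YY1 motif (1.56% of promoters) and the CTCF motif (0.103%) in none of the promoters of the 8 genes. A match is a description of letters, not of binding.

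Several of the 10 genes are hosts of small RNAs, and 5 of their mature miRNAs are shown with the seed, bases 2 to 8, in capitals, as RefSeq gives them: both arms of miR-675, from the single hairpin of H19, 1 of the 6 mature miRNAs of Rian, and the 2 of the 26 of Mirg that share a seed. H19 hosts miR-675, Rian hosts miR-370 and 2 other miRNAs, and Mirg hosts 14 hairpins, of which miR-453 and miR-496a-5p share the seed GGUUGCC.
mmu-miR-675-5p: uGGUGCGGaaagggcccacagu
mmu-miR-675-3p: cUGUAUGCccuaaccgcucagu
mmu-miR-370-3p: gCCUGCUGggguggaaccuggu
mmu-miR-453: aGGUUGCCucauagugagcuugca
mmu-miR-496a-5p: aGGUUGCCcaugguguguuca

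Every hairpin hosted by H19, Meg3, Mest, Rian and Mirg had 0 counts in all 9 libraries. Libraries of long poly A RNA do not measure mature miRNAs, so the values that follow are those of the host transcripts alone.

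Of the 10 genes, 9 had a count in at least 1 library, and 9, Meg3 included, had a mean under 1 FPKM in every group. Ndn alone was well expressed and held 80.1% of all counts of the 10 genes. In Undifferentiated cells the order of levels per length was Ndn at 20.2 FPKM ± 1.10 (SD, n = 3), Plagl1 at 0.583 ± 0.0762, Peg3 at 0.542 ± 0.0218, Mest at 0.468 ± 0.0346, H19 at 0.386 ± 0.0653, Cdkn1c at 0.139 ± 0.0728, Grb10 at 0.0914 ± 0.0249, Rian at 0.0681 ± 0.0190 and Mirg at 0.0520 ± 0.0369. Plagl1 and Peg3, Mest and H19, and each pair of neighbours from Cdkn1c down to Mirg had overlapping libraries, while Ndn lay above 88.0% of the genes with a level above 0. FPKM here uses the length of all exons of a gene, 18234 bases for Rian, for example.

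**Figure D1:**
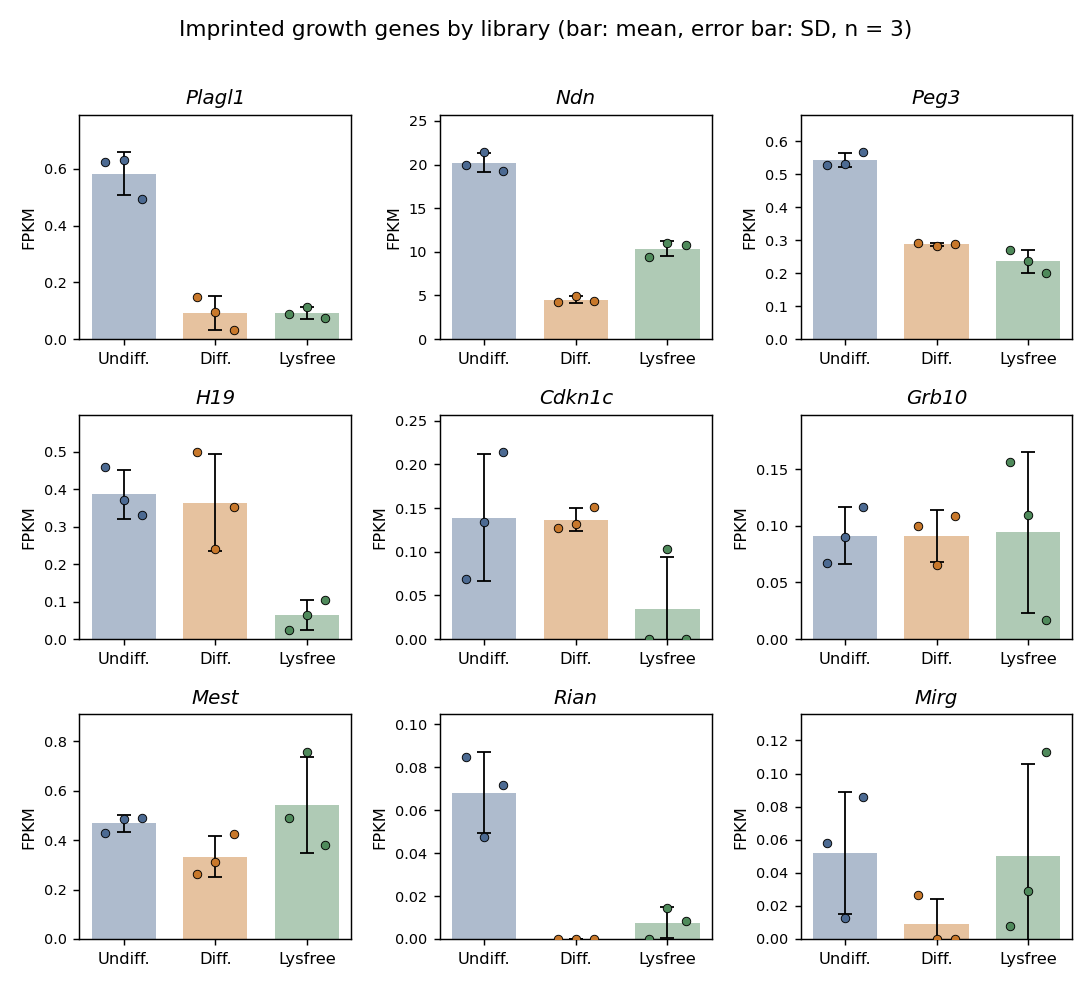
FPKM of 9 imprinted growth genes in each of the 9 libraries (points), with the mean (bar) and SD (error bar) of the 3 libraries of each group; every panel has its own linear axis from 0, and Meg3, at 0 in all libraries, is left out. Plagl1, Ndn, Peg3 and Rian are highest in Undifferentiated libraries, and H19 is lowest in Lysfree libraries.

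In Differentiated against Undifferentiated cells, 4 of the 9 genes tested were lower by at least 2-fold at an adjusted p under 0.05 (edgeR, Benjamini-Hochberg over all genes) and none was higher. Over all 24402 genes tested, 21.8% were called, 11.4% as lower and 10.4% as higher. The genes called were Plagl1, Ndn, Rian and Mirg, and Peg3 fell just short of 2-fold. The FPKM of 5 of the 9, Plagl1, Ndn, Peg3, Mest and Rian, did not overlap between the groups and was lower in Differentiated cells, against 24.7% of all genes, and no gene of the 9 was higher without overlap, against 26.2% (50.9% in either direction). The median log2 fold change of the 9 was -0.94, the same with Rian at its bound, and that of all genes was 0.02, and 7 of the 9 passed edgeR's filter on low counts (filterByExpr). Groups of 3 against 3 cannot reach an exact permutation p below 0.1 for a single gene, so the p-values given are those of the model fitted to all genes.

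In Lysfree against Undifferentiated cells, 4 of 9 genes were called lower, H19, Plagl1, Peg3 and Rian, and none higher, against 14.3% of all 23994 genes called, 8.76% as lower and 5.52% as higher. The same 4 were called without Lysfree 1. FPKM values did not overlap for 5 genes, these 4 and Ndn, all lower, against 23.2% of all genes in that direction and 43.5% in either, and the median log2 fold change was -1.16 against -0.02 for all genes. In Lysfree against Differentiated cells, Ndn was called higher and H19 lower, 2 of 9, against 18.7% of all 24130 genes called, 8.14% as higher and 10.5% as lower. Without Lysfree 1, Ndn and H19 were called and so were Rian and Mirg, both higher, and without Lysfree 2 Ndn, H19, Mirg (higher) and Cdkn1c (lower). FPKM values did not overlap for 4 genes, higher for Ndn and lower for H19, Cdkn1c and Peg3, against 46.6% of all genes, 21.3% higher and 25.3% lower. The filter on low counts kept 5 of the 9, and H19 was not among them. The median log2 fold change was 0.11, or 0.05 with Rian at its bound, and -0.06 over all genes. The 3 comparisons share libraries in pairs, so the values of each are given side by side below and were not correlated.

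**Figure D2:**
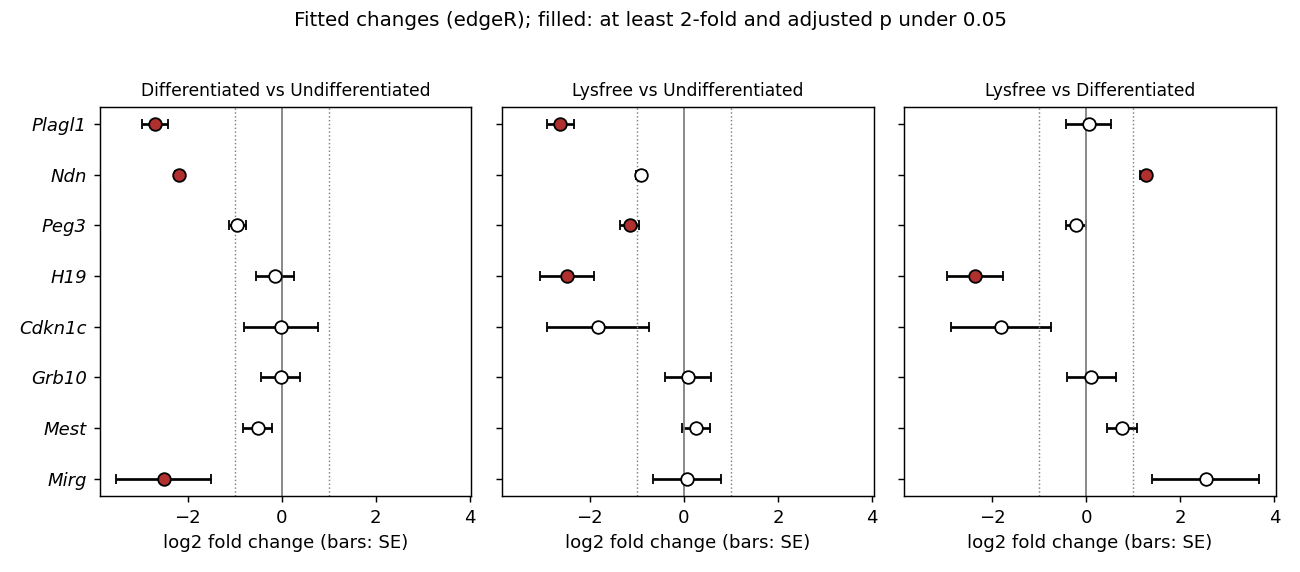
Log2 fold change with its SE (edgeR) of 8 imprinted growth genes in the 3 comparisons of groups; filled points passed a 2-fold change and an adjusted p under 0.05, dotted lines mark 2-fold, and Rian, at 0 in a whole group, is left out. Plagl1 lies near -2.7 in both comparisons with Undifferentiated cells and near 0 between the other two groups, and H19 is below -2 in both comparisons that involve Lysfree.

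Plagl1 (ENSMUSG00000019817; chromosome 10, 13060504 to 13131694, plus strand), also called Zac1, encodes a paternally expressed zinc finger transcription factor that can arrest the cell cycle and acts on other imprinted genes. It had 104, 108 and 62 counts in the Undifferentiated libraries, 18, 14 and 4 in the Differentiated ones and 12, 17 and 11 in Lysfree, or 0.583 FPKM ± 0.0762, 0.0922 ± 0.0587 and 0.0913 ± 0.0210 (SD, n = 3). Every Undifferentiated library lay above every other library, and the other groups overlapped. The log2 fold change was -2.69 ± 0.28 (SE) in Differentiated against Undifferentiated cells (edgeR, adjusted p = 9.6e-22) and -2.62 ± 0.29 in Lysfree against Undifferentiated cells (edgeR, adjusted p = 4.8e-09, and 1.1e-17 without Lysfree 1). Between Lysfree and Differentiated cells it was 0.05 with a 95% interval of -0.89 to 1.00 (edgeR, adjusted p = 0.95).

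Ndn (ENSMUSG00000033585; chromosome 7, 62346569 to 62350262, plus strand), whose product necdin is a MAGE family protein that binds E2F factors and restrains proliferation, is paternally expressed and lies in the Prader-Willi region. It had 1567, 1737 and 1142 counts in Undifferentiated, 240, 339 and 263 in Differentiated and 607, 775 and 772 in Lysfree libraries. Per length these were 20.2 FPKM ± 1.10, 4.51 ± 0.375 and 10.4 ± 0.894 (SD, n = 3), and no library of any group overlapped another group. Ndn fell with differentiation by 2.19 ± 0.08 on the log2 scale (edgeR, adjusted p = 5.5e-160), a change of 4.56-fold. In Lysfree cells it was 1.26 ± 0.12 above Differentiated cells on the log2 scale (edgeR, adjusted p = 2.8e-08, and 1.4e-48 without Lysfree 1) and passed in all 18 other settings tried. Against Undifferentiated cells the log2 fold change of Lysfree was -0.91 ± 0.11 (edgeR, adjusted p = 2.8e-08), under the 2-fold limit. Ndn was the only one of the 9 genes whose Lysfree level lay between the other groups and differed from both at an adjusted p under 0.05. Of all 2784 genes called lower in Differentiated cells, 63.9% had a Lysfree mean between the other groups, and 27.1% also differed from both. Of the 13 other imprinted genes called lower, 10 had a mean between (76.9%), and 9 also differed from both. Ndn covers no exonic base of another gene.

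Peg3 (ENSMUSG00000002265; chromosome 7, 6703892 to 6730431, minus strand) encodes a large paternally expressed zinc finger protein. It had 150, 155 and 121 counts in Undifferentiated, 60, 70 and 62 in Differentiated and 63, 60 and 52 in Lysfree libraries, or 0.542 FPKM ± 0.0218, 0.287 ± 0.00457 and 0.235 ± 0.0340 (SD, n = 3). The Undifferentiated libraries lay above all others, and the highest Lysfree library, at 0.269 FPKM, lay below the lowest Differentiated library, at 0.282. Its log2 fold change was -0.94 ± 0.17 in Differentiated (edgeR, adjusted p = 2.4e-07) and -1.16 ± 0.21 in Lysfree cells (edgeR, adjusted p = 2.2e-05, and 1.2e-09 without Lysfree 1), both against Undifferentiated cells. The first is a 1.92-fold and the second a 2.23-fold change, so that the 2-fold limit falls between them. Lysfree and Differentiated cells differed by -0.22 on the log2 scale with a 95% interval of -0.65 to 0.20 (edgeR, adjusted p = 0.47). In a test against a 2-fold change (edgeR's glmTreat) neither fall passed.

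H19 (ENSMUSG00000000031; chromosome 7, 142575529 to 142578143, minus strand) is a maternally expressed long noncoding RNA that shares its control region with Igf2, a growth factor expressed from the other parental copy. It had 24, 20 and 13 counts in Undifferentiated, 19, 11 and 14 in Differentiated and 1, 3 and 5 in Lysfree libraries, or 0.386 FPKM ± 0.0653, 0.364 ± 0.130 and 0.0639 ± 0.0408 (SD, n = 3). All Lysfree libraries lay below all others, and the other groups overlapped. H19 was the only one of the 9 genes called lower in Lysfree than in both other groups: the log2 fold change was -2.48 ± 0.57 against Undifferentiated (edgeR, adjusted p = 6.5e-04) and -2.36 ± 0.59 against Differentiated cells (edgeR, adjusted p = 0.0027). Without Lysfree 1, the library with a single count, these were -2.15 (edgeR, adjusted p = 0.0011) and -2.01 (edgeR, adjusted p = 0.0024). Differentiated and Undifferentiated cells differed by -0.14 with a 95% interval of -0.91 to 0.63 (edgeR, adjusted p = 0.79). The Lysfree values rest on 9 counts over 3 libraries. With library totals scaled by edgeR's TMM factors, the ratio of Undifferentiated to Lysfree counts was 5.88, with a 95% interval of 2.89 to 13.5 for counting error only. Igf2 had 3 counts in 1 Differentiated library and none in the other 8 libraries, so that no fold change is given for it.

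Cdkn1c (ENSMUSG00000037664; chromosome 7, 143458339 to 143461050, minus strand) encodes p57, a maternally expressed inhibitor of cyclin-dependent kinases. Its counts were 3, 6 and 7 in Undifferentiated, 4, 5 and 5 in Differentiated and 0, 4 and 0 in Lysfree libraries. Lysfree libraries were low, without a clear gap to the Undifferentiated ones, and no comparison was called. The log2 fold change in Lysfree was -1.83 ± 1.09 against Undifferentiated (edgeR, adjusted p = 0.22) and -1.81 ± 1.06 against Differentiated cells (edgeR, adjusted p = 0.21). Neither passed without Lysfree 1 (edgeR, adjusted p = 0.39 and 0.36), and both passed without Lysfree 2, the single Lysfree library with counts (edgeR, adjusted p = 0.024 and 0.023). Differentiated against Undifferentiated cells gave -0.01 with a 95% interval of -1.56 to 1.54 (edgeR, adjusted p = 0.99), which does not exclude a change of 2-fold in either direction. An antisense gene, itself at 0 counts, covers 30.7% of its exonic bases, and without a stated strand setting the reads of both cannot be told apart.

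Grb10 (ENSMUSG00000020176; chromosome 11, 11930508 to 12038683, minus strand) encodes an adaptor that binds the activated insulin and IGF1 receptors and dampens their signal. It had 13, 18 and 17 counts in Undifferentiated, 14, 11 and 16 in Differentiated and 25, 19 and 3 in Lysfree libraries, at group means of 0.0914, 0.0912 and 0.0944 FPKM. The 3 groups overlapped, and Lysfree held both the highest and the lowest library. The 95% interval of the log2 fold change was -0.84 to 0.80 in Differentiated against Undifferentiated (edgeR, adjusted p = 0.97), -0.86 to 1.05 in Lysfree against Undifferentiated (edgeR, adjusted p = 0.91) and -0.91 to 1.12 in Lysfree against Differentiated cells (edgeR, adjusted p = 0.89). Without Lysfree 1 the log2 fold change was -0.49 against Undifferentiated (edgeR, adjusted p = 0.51) and -0.47 against Differentiated cells (edgeR, adjusted p = 0.47).

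Mest (ENSMUSG00000051855; chromosome 6, 30723547 to 30748465, plus strand) encodes a paternally expressed protein of the alpha/beta hydrolase fold that is known from the expansion of adipose tissue. It had 36, 42 and 31 counts in Undifferentiated, 16, 23 and 27 in Differentiated and 34, 57 and 29 in Lysfree libraries. Per length the means were 0.468 FPKM ± 0.0346, 0.333 ± 0.0826 and 0.542 ± 0.195 (SD, n = 3). The highest Differentiated library, at 0.424 FPKM, lay just below the lowest Undifferentiated one, at 0.428, and Lysfree overlapped both. The log2 fold change was -0.51 ± 0.30 in Differentiated (edgeR, adjusted p = 0.17) and 0.26 ± 0.30 in Lysfree cells (edgeR, adjusted p = 0.53) against Undifferentiated cells. Lysfree against Differentiated cells gave 0.77 ± 0.32 (edgeR, adjusted p = 0.069, and 0.017 without Lysfree 1, still under 2-fold). Other genes share 23.1% of the exonic bases of Mest, among them Copg2, which had 1130 to 1923 counts per library.

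Meg3, Rian and Mirg are maternally expressed noncoding RNAs that lie one after the other in the imprinted domain between Dlk1 and Dio3 on chromosome 12, a region of 828 kb (109452823 to 110281097). Of its 118 annotated genes, 11 had any count and 6 reached 10 counts in a library. Meg3 (109541001 to 109571726, plus strand), a maternally expressed RNA with growth-suppressing activity, had 0 counts in all 9 libraries, which allows a level of at most 0.00756 to 0.0107 FPKM depending on the library. Dio3, which encodes a deiodinase that inactivates thyroid hormone, also had none. Dlk1, the paternally expressed transmembrane protein Pref-1 that keeps preadipocytes undifferentiated, was abundant: 270 FPKM ± 2.70 in Undifferentiated, 30.3 ± 1.05 in Differentiated and 65.2 ± 3.54 in Lysfree cells (SD, n = 3). The groups did not overlap, with log2 fold changes of -3.18 ± 0.05 on differentiation, -2.0 ± 0.09 in Lysfree against Undifferentiated cells (edgeR, adjusted p = 4.9e-18) and 1.17 ± 0.09 in Lysfree against Differentiated cells (edgeR, adjusted p = 3.9e-10).

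Rian (ENSMUSG00000097451; 109603940 to 109661716, plus strand), also called Meg8, is a host of small nucleolar RNAs, 13 of which the annotation places within it. It had 33, 19 and 21 counts in Undifferentiated libraries, 0 in all 3 Differentiated libraries and 0, 5 and 3 in Lysfree libraries. The Undifferentiated libraries were therefore all above the others, and those of Lysfree overlapped those of Differentiated at 0. Rian was at least 7.02-fold lower in Differentiated than in Undifferentiated cells, taking 3 counts per library as the floor (edgeR, adjusted p = 1.8e-13). In Lysfree cells its log2 fold change against Undifferentiated was -3.02 ± 0.59 (edgeR, adjusted p = 7.4e-05, and 2.1e-05 without Lysfree 1). The difference between Lysfree and Differentiated cells did not pass (edgeR, adjusted p = 0.082), and did without Lysfree 1 (edgeR, adjusted p = 0.028). That difference rests on 8 counts in all.

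Mirg (ENSMUSG00000097391; 109729764 to 109749460, plus strand), the host of a cluster of miRNAs, had 9, 2 and 10 counts in Undifferentiated, 3, 0 and 0 in Differentiated and 1, 4 and 16 in Lysfree libraries. The Differentiated libraries were low but overlapped the Undifferentiated ones, and the Lysfree libraries spanned the whole range. Its log2 fold change on differentiation was -2.50 ± 1.01 (edgeR, adjusted p = 0.030). The ratio of Undifferentiated to Differentiated counts, scaled as for H19, was 6.05 with a counting interval of 1.81 to 31.7. This call was lost with DESeq2 (adjusted p = 0.096) and when Undifferentiated 1 or 3 or Differentiated 2 or 3 was left out (adjusted p up to 0.22), so 21 and 3 counts do not carry it firmly. Lysfree against Undifferentiated cells gave 0.06 ± 0.73 (edgeR, adjusted p = 0.97, and 0.57 without Lysfree 1), and Lysfree against Differentiated cells 2.54 ± 1.13 (edgeR, adjusted p = 0.088, and 0.0046 without Lysfree 1).

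Rtl1, a paternally expressed retrotransposon-derived gene on the strand opposite to Rian, had 27, 25 and 21 counts in Undifferentiated, 9, 5 and 2 in Differentiated and 1, 2 and 1 in Lysfree libraries. Its groups did not overlap in FPKM, with the Lysfree libraries lowest. The gap was narrow, as Differentiated 3 and Lysfree 2 both had 2 counts (0.0195 and 0.0165 FPKM). The Lysfree means of Dlk1, Rian and Ndn lay between those of the other groups, that of Rian on 8 counts in all. The log2 fold change was -1.95 ± 0.47 on differentiation (edgeR, adjusted p = 8e-05) and -3.95 ± 0.60 in Lysfree against Undifferentiated cells (edgeR, adjusted p = 1.8e-06), while Lysfree against Differentiated cells did not pass (edgeR, adjusted p = 0.11). The other genes of the domain with 10 counts in a library were the pseudogene Gm3379, with 20 to 76 counts per library, and the noncoding RNA Gm34719, with 3 to 12.

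**Figure D3:**
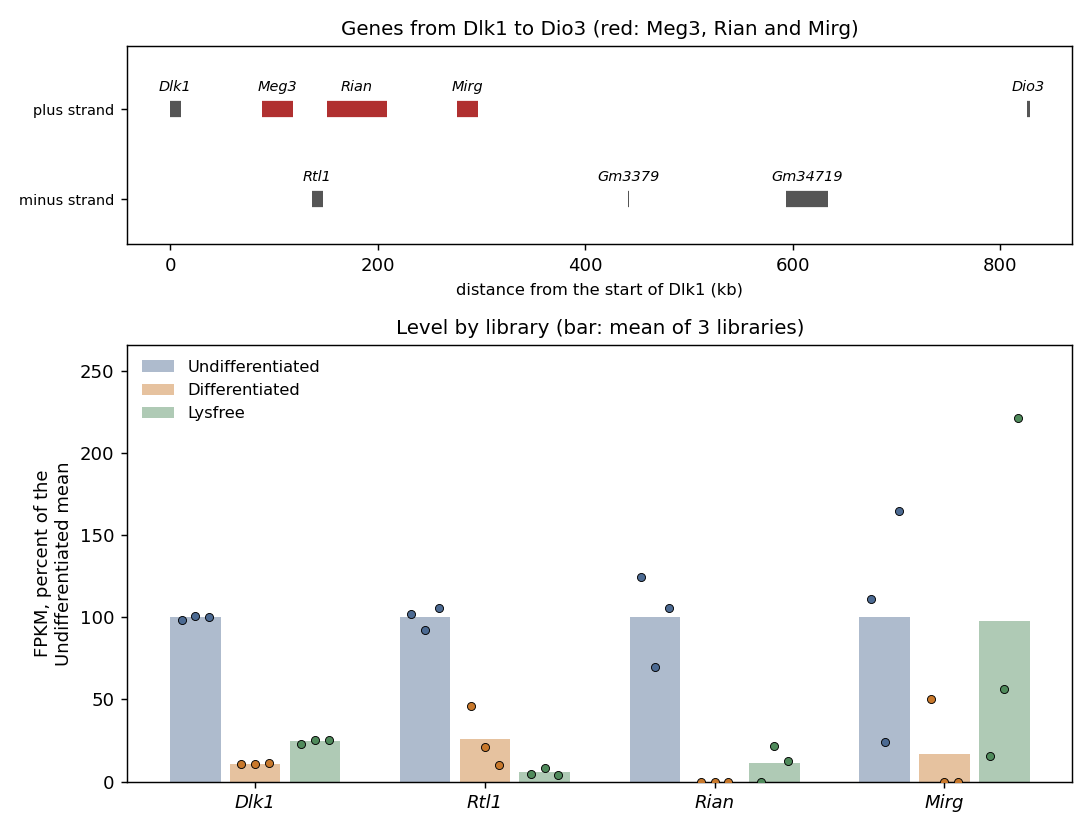
Upper panel: genes of the imprinted domain on chromosome 12 by distance from the start of Dlk1 in kb, on the plus and minus strand. Lower panel: FPKM of 4 genes in each library as a percent of the mean of the Undifferentiated libraries (points; bars are means of 3 libraries). Dlk1 was at 10.8% to 11.5% in Differentiated and 23.1% to 25.4% in Lysfree libraries, and Rian at 0% in Differentiated and 0% to 21.5% in Lysfree libraries.

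A list of 60 other genes, known as imprinted in at least some tissue, was written by hand for comparison. Whether each is imprinted in 3T3-L1 cells was not measured, and "other imprinted genes" below means this list. On differentiation, 13 were called lower and 6 higher of 52 tested, 36.5% against 21.8% of all genes, and the median log2 fold change was -0.17 against 0.02. The largest falls were in Dcn, the proteoglycan decorin (-4.32 ± 0.07), in Dlk1, and in Osbpl5, an oxysterol-binding protein (-2.47 ± 0.08). The largest rises were in Peg10, a paternally expressed gene of retrotransposon origin (4.99 ± 0.05), in Dhcr7, the last enzyme of cholesterol synthesis (3.22 ± 0.06), and in Nnat, neuronatin (1.5 ± 0.27; edgeR, adjusted p = 1.6e-07). Peg10 rose from 10.8 FPKM ± 1.12 in Undifferentiated to 348 ± 34.4 in Differentiated cells and was at 19.3 ± 5.10 in Lysfree cells (SD, n = 3).

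In Lysfree against Undifferentiated cells, 7 of 49 other imprinted genes tested were called lower and none higher, 14.3% as for all genes, and 7 were called lower without Lysfree 1. They included Dcn (-2.74 ± 0.15) and Tfpi2, a serine protease inhibitor (-2.83 ± 0.38; edgeR, adjusted p = 1.6e-07). Between Lysfree and Differentiated cells 7 were higher and 5 lower of 51, 23.5% against 18.7% of all genes, and 7 and 7 without Lysfree 1. Peg12 (1.67 ± 0.17), Dcn (1.57 ± 0.18) and Osbpl5 (1.55 ± 0.11) were higher, and Peg10 (-4.11 ± 0.14), Dhcr7 (-3.73 ± 0.11) and Tfpi2 (-2.79 ± 0.37) lower, the last 3 at edgeR adjusted p-values of 1.6e-15, 4e-16 and 2.1e-06. Peg12 is the neighbour of Ndn in the Prader-Willi region and had 4.20, 1.58 and 4.83 FPKM in Undifferentiated, Differentiated and Lysfree cells. Like Ndn, it fell on differentiation and was higher in Lysfree than in Differentiated cells. Its Lysfree libraries overlapped the Undifferentiated ones, whereas those of Ndn lay below them. Snrpn, also of that region, went the other way: it was called higher on differentiation, at 4.59, 9.73 and 4.73 FPKM in the same order.

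**Figure D4:**
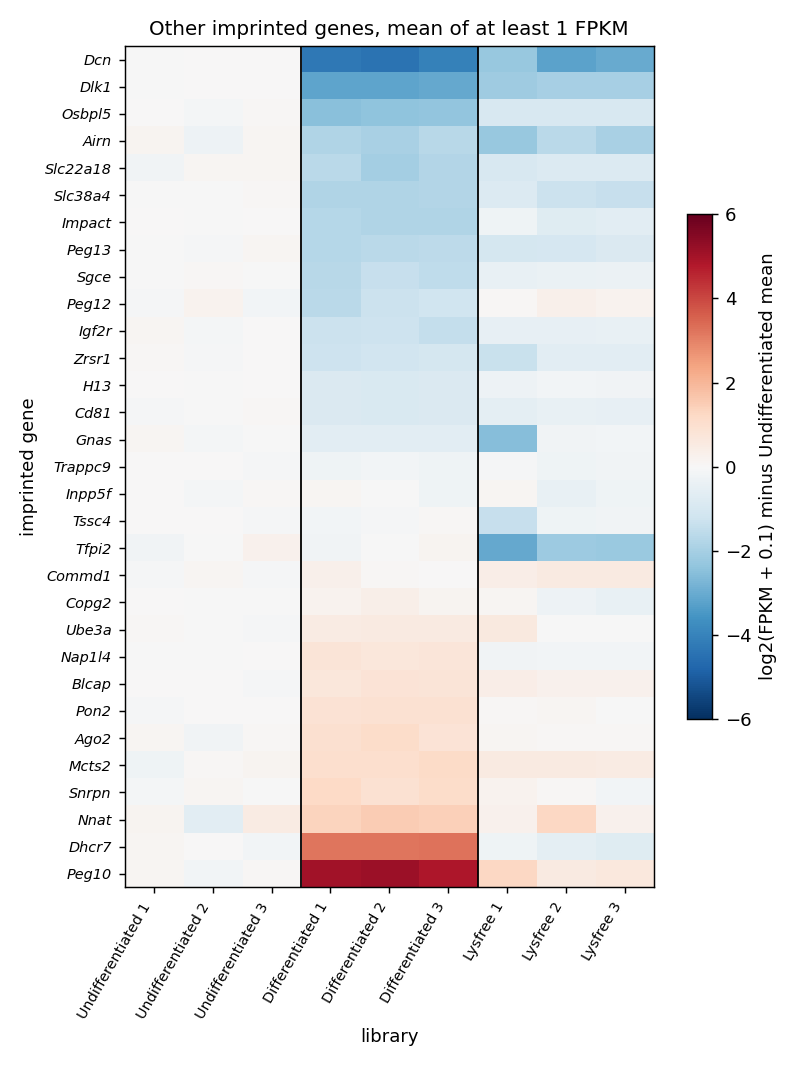
Difference of log2(FPKM + 0.1) from the mean of the Undifferentiated libraries for 31 other imprinted genes with a mean of at least 1 FPKM, in each of the 9 libraries; red is higher, blue is lower, and genes are ordered by the Differentiated libraries. Dcn and Dlk1 are lowest and Peg10 and Dhcr7 highest in the Differentiated libraries, and Lysfree 1 differs from Lysfree 2 and 3 at some genes.

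Some proteins keep the DNA methylation of imprints, and others set or remove methylation. Dnmt1 and Uhrf1 copy it, and Zfp57 and Zfp445 with Trim28 and Setdb1 guard the marked regions. Dnmt3a, Dnmt3b and Dnmt3l set new methylation, and the Tet enzymes oxidize it. These genes were counted in a list of 19, named imprint keeping genes below for short. The list also holds Ctcf, Dppa3, Arid4a, Smchd1, Ehmt2, Eed and Ezh2, so its shares are not those of DNA methylation genes alone. Of the 19, 4 were called higher on differentiation (Uhrf1, Tet2, Tet3 and Dnmt3l) and 2 lower (Zfp57 and Tet1). That is 31.6% against 21.8% of all genes. Dnmt3l had 1, 1 and 0 counts in Undifferentiated libraries, so its change starts near the floor. Zfp57 fell from 9.51 FPKM ± 0.752 to 1.86 ± 0.0575 and stood at 5.70 ± 0.694 in Lysfree cells (SD, n = 3), a log2 fold change of -2.38 ± 0.11 on differentiation (edgeR, adjusted p = 2.7e-110) and of 1.68 ± 0.15 in Lysfree against Differentiated cells (edgeR, adjusted p = 5.1e-09). Tet2 rose by 1.39 ± 0.10 (edgeR, adjusted p = 1.3e-39), Tet3 by 1.27 ± 0.06 (edgeR, adjusted p = 2.8e-109) and Uhrf1 by 1.07 ± 0.07 (edgeR, adjusted p = 3.1e-46). Tet1, at 0.370, 0.163 and 0.0597 FPKM in Undifferentiated, Differentiated and Lysfree cells, was called lower in all 3 comparisons, with Lysfree lowest. In Lysfree against Undifferentiated cells, 1 of the 19 was called higher and 2 lower, 15.8% against 14.3% of all genes, and 2 higher and 2 lower without Lysfree 1. The falls were those of Tet1 (-2.59 ± 0.30; edgeR, adjusted p = 9e-09) and Dnmt3b (-1.0 ± 0.21; edgeR, adjusted p = 0.00026). In Lysfree against Differentiated cells 1 of 18 was higher and 4 lower, with or without Lysfree 1, 27.8% against 18.7% of all genes. There Tet1 (-1.40 ± 0.38; edgeR, adjusted p = 0.0048), Tet2 (-1.35 ± 0.14; edgeR, adjusted p = 1.2e-07) and Tet3 (-1.24 ± 0.10; edgeR, adjusted p = 2.8e-09) were lower. No methylation was measured in these libraries.

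Grb10, Cdkn1c and Ndn act on the insulin and IGF pathway and on the cell cycle, and 19 genes of those pathways were counted with them. On differentiation 3 were called higher, Irs2 (2.80 ± 0.06), Ccne1 (2.21 ± 0.08) and Insr (1.11 ± 0.07), and 3 lower, Grb14 (-2.12 ± 0.12), Igf1 (-1.37 ± 0.13) and Cdkn1b (-1.08 ± 0.06), 31.6% of the 19 against 21.8% of all genes. Irs2 is a substrate of the insulin receptor Insr, Ccne1 is cyclin E1, Grb14 is the insulin receptor adaptor most like Grb10, and Cdkn1b is the inhibitor p27. In Lysfree against Undifferentiated cells Irs2 was higher (1.38 ± 0.11; edgeR, adjusted p = 1.3e-12) and Igf1 lower (-3.43 ± 0.20; edgeR, adjusted p = 1.8e-15), 10.5% against 14.3% of all genes. In Lysfree against Differentiated cells 2 were higher, Grb14 (2.36 ± 0.16) and Ccnd1, cyclin D1 (1.85 ± 0.09), and 4 lower, among them Ccne1 (-2.48 ± 0.13), Igf1 (-2.06 ± 0.22) and Irs2 (-1.43 ± 0.09), 31.6% against 18.7% of all genes. Without Lysfree 1 the numbers called in these comparisons were the same. Grb14 had 3.49, 0.820 and 4.02 FPKM in Undifferentiated, Differentiated and Lysfree cells, whereas Grb10 did not pass the test in any comparison.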

How the data were processed

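Per the labels, the submitters' notes and the study's methods, poly A libraries of total RNA were cleaned of adaptor and low-quality reads and mapped to mm10 (GRCm38) with HISAT2 2.0.5, and the authors counted reads with featureCounts 1.5.0-p3 and deposited the counts per gene, not normalized, and FPKM for the same genes. The strand setting and the annotation release were not given in the sources used here, so antisense or overlapping genes may share reads. GENCODE vM21 holds 54409 of the 54532 identifiers.

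Groups came from the sample labels. Counts were tested with edgeR 4.0.16 (TMM, glmQLFit and glmQLFTest, Benjamini-Hochberg) in R 4.3.3, for each pair of groups separately, over genes with a count in any of their libraries. Called means at least 2-fold and an adjusted p under 0.05. The SE is the size of the log2 fold change divided by the square root of F, and 95% intervals are normal. The test was checked on simulated counts. Alternatives were DESeq2 1.42.0, other size factors, filters and thresholds, limma 3.58.1 on log2 FPKM with a pseudocount of 1 or 0.1, a replicate block and leaving out each library. The genes described and the lists were chosen with earlier results of these data known. In each comparison and list, the 3 largest rises and 3 largest falls called are named where the mean reached 1 CPM and the groups did not overlap, with all 10 growth regulators, Dlk1, Igf2, the chromosome 12 domain and, for each growth regulator with at least 1 CPM in a group, the 2 genes of most similar profile. Other genes named as called are members of counts given in the text.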

Additional observations from a re-analysis of the deposited data

How the results depend on the processing

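The values of the growth regulators other than Ndn rest on few counts, and limma on log2 FPKM with a pseudocount understates their changes. Of 412 values of the 27 pairs of gene and comparison under the alternatives, 356 kept their direction and side of the threshold and 28 reversed. Counts of called growth regulators were 4, 4 and 2 in Differentiated against Undifferentiated, Lysfree against Undifferentiated and Lysfree against Differentiated cells. They were 1, 2 and 1 with at least 10 counts in every library, 1, 0 and 1 with limma on log2(FPKM + 1) with or without a mean of at least 1 FPKM, and 2 and 2 in the first 2 with limma on log2(FPKM + 0.1). The third was 1 with filterByExpr and 4 with all 9 libraries in a single fit. Leaving out a library gave 3 to 4, 4 to 5 and 2 to 4, with 4 in the third without Lysfree 1 or Lysfree 2. With no fold change threshold, 29, 22 and 26 other imprinted genes, 16, 13 and 12 imprint keeping genes and 16, 10 and 12 growth partner genes passed. Far more of all genes passed then too: 5605 as higher and 5655 as lower of 24402 in the first comparison. In the second these were 4316 and 4112 of 23994, and in the third 4749 and 4531 of 24130. With limma and a mean of at least 1 FPKM, other imprinted genes gave 4 in the second and 7 in the third comparison, and growth partner genes 1 in the second. Imprint keeping genes gave 3, 0 and 3 with limma on log2(FPKM + 1), with or without that filter, 1 in the second with at least 10 counts, and 3 in the third against a 2-fold change (glmTreat). Genes with no value under a filter have none here.

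No called value of a growth regulator reversed. Leaving out a library gave log2 fold changes of -0.43 to 0.10 for H19, -0.34 to 0.40 for Cdkn1c and -0.21 to 0.18 for Grb10 on differentiation, -0.0661 to 0.47 for Mest, -0.49 to 0.60 for Grb10 and -1.35 to 0.57 for Mirg in Lysfree against Undifferentiated cells, and -0.34 to 0.54 for Plagl1 and -0.47 to 0.61 for Grb10 in Lysfree against Differentiated cells. With limma on log2(FPKM + 0.1), Cdkn1c was at 0.0294 on differentiation, Grb10 at -0.044 against Undifferentiated and -0.043 against Differentiated cells in Lysfree, and Mirg at -0.0524 in Lysfree against Undifferentiated cells, where Mirg was at -0.0037 with log2(FPKM + 1) and at -0.0091 with DESeq2. Plagl1 was at -4.6e-06 in Lysfree against Differentiated cells with log2(FPKM + 1). The cause was not tested.

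Deviations of same-numbered libraries from their group means correlated by -0.0845 to 0.115. Differently numbered libraries were not compared, so these values do not settle whether the replicate numbers pair the libraries. With the replicate number as a block, 3, 4 and 2 growth regulators were called, without Mirg in the first comparison, and Cdkn1c was at 0.0213 on differentiation, Grb10 at -0.0309 and -0.0377 in the Lysfree comparisons and Mirg at -0.1467 in Lysfree against Undifferentiated cells.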

Other observations

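Genes with a profile over the 9 libraries most like that of an imprinted growth regulator were searched among those that passed edgeR's expression filter. Of these 14195 genes, those in any of the lists were left out. The measure was the root mean square of the difference of centred log2(CPM + 0.5), with library totals scaled by edgeR's TMM factors. For Ndn the nearest gene was Dlg5, a scaffold protein of cell junctions, with a difference of 0.0902 and 21.8, 5.0 and 12.3 FPKM in Undifferentiated, Differentiated and Lysfree cells. The next was Sorbs2 (0.112), a low gene at 0.0654, 0 and 0.0250 FPKM in the same order. For Plagl1 they were Zfr2 (0.180; 2.39, 0.438 and 0.495 FPKM) and Lhx6, a LIM homeobox factor (0.236; 1.52, 0.329 and 0.359 FPKM). For Peg3 they were Oat, ornithine aminotransferase (0.0751; 80.5, 48.9 and 40.4 FPKM), and Pskh1 (0.0851), for Mest Shld1 (0.175) and Pex26 (0.184), and for Rian Grik5 (0.123) and Capn5 (0.125). The offset of 0.5 CPM compresses the changes of low genes such as Rian and Sorbs2. Grik5 and Capn5 therefore fell less than Rian did, and Sorbs2 fell to 0 in Differentiated cells where Ndn did not.

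Within 250 kb of the 10 growth regulators lie genes of which 59 could be tested on differentiation, and 5 of these were called higher and 11 lower, 27.1% against 21.8% of all genes. Those called include Dlk1, Rtl1, Osbpl5, Slc22a18, Kcnq1ot1 and Peg12, already counted as other imprinted genes, so the 2 shares overlap. In Lysfree against Undifferentiated cells 2 were higher and 8 lower (17.9% against 14.3%), and in Lysfree against Differentiated cells 8 were higher and 4 lower (20.7% against 18.7%). Within 250 kb of Peg3, 2 genes could be tested on differentiation and none was called.

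Gnas, an imprinted gene for the stimulatory G protein alpha subunit that was chosen for mention after its values were seen, had 335 counts in Lysfree 1 against 1982 in Lysfree 2 and 2056 in Lysfree 3.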
